A study of Mus musculus with 6 samples.

Results

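The 9 genes described here encode ligands of the TNF superfamily: Tnfsf4 (OX40 ligand), Tnfsf8 (CD30 ligand), Tnfsf9 (CD137 ligand), Tnfsf10 (TRAIL), Tnfsf11 (RANKL), Tnfsf13b (BAFF), Tnfsf14 (LIGHT), Cd40lg (CD40 ligand) and Fasl (Fas ligand). They were chosen by name, with earlier results of these data known. Each was read from the array row whose annotation gives that symbol alone, and all 9 of them had exactly 1 such row among the 30102 genes tested. The data come from whole-transcript Affymetrix arrays on total RNA of mast cells grown from bone marrow (BMMCs), which is C57BL/6J femur marrow kept in interleukin 3 and stem cell factor for 6 weeks. In the ionomycin group the cells stood in Tyrode's buffer with 1 µg/mL ionomycin, a calcium ionophore that makes mast cells degranulate, for 1 h, and then in culture medium for 3 h, so that the RNA dates from 4 h after the start of activation. The naive group went through the same 1 h in buffer, without ionomycin, and the same 3 h in medium. Each group had 3 arrays, and no genetic change was given for either. The culture is grown from marrow and not taken from tissue, and ionomycin raises calcium without going through the IgE receptor, which limits the cells as a model of mast cells in the body. The comparison asks which transcripts differ hours after degranulation, beyond the genes of the first minutes.

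TNF superfamily ligands are mostly membrane proteins that assemble as trimers and cluster their receptors on a neighbouring cell. Receptors with a death domain, such as those for TRAIL and Fas ligand, can start the caspase cascade through the adaptor FADD, while the others recruit TRAF proteins and turn on NF-kB and MAP kinase signalling. In mast cells the family is best known for TNF itself, which is both stored in granules and made anew, and for OX40 ligand, a costimulatory signal to T cells.

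The labels do not say whether the 3 replicates of a group came from separate cultures or animals, so p-values cover the spread among these samples, perhaps only a technical one. All levels are log2 signals, with a precision limited by the few arrays. Replicate 1 lay apart from the other arrays in both groups on the first principal component (52.6% of the variance), at -21.2 for ionomycin replicate 1 and -48.0 for naive replicate 1, against 13.0 to 21.9 for the other 4 arrays. For that reason the ligands' differences are also given at each replicate number. All 10 mast cell markers examined were above the background level in both groups, and none passed the test between groups. As background, a log2 level of 6.09 was used, which is the 95th percentile of the mean levels of 1427 chemosensory receptor genes. Of the 30102 genes tested, 18678 had a 6-array mean above that level, so a level above it is common. It does not by itself show that the cells a gene marks are present. A level below 6.09 does not show that a transcript is absent. Levels of different genes come from different probes, so a comparison between genes is rough. It was made only for the background level, the mean levels of marker lists and the choice of the brightest genes of a list.

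At 4 h after ionomycin, Tnfsf10 and Tnfsf4 were higher, by 2.94-fold and 2.60-fold, and the other 7 ligands did not pass the test. The test was limma over all 30102 genes, with Benjamini-Hochberg adjustment and a threshold of 0.05. It called 0.289% of all genes higher and 0.0598% lower, so that 2 of 9 ligands called higher stood beside 87 of 30102 genes. Because the 9 were chosen with earlier results of these data known, these shares do not test whether the family stands out. None of the 9 was called lower (0 by limma). Before adjustment, at p under 0.05, 3 of the 9 were higher and 0 lower, against 10.2% of all genes higher and 5.44% lower. The median difference over the 9 ligands was 0.50 on the log2 scale, against 0.05 over all genes tested. That median is the value of Tnfsf9, whose differences at replicate numbers 1, 2 and 3 were 1.56, -0.03 and -0.03. It therefore does not describe a rise shared by the 9 ligands. The replicate numbers showed several patterns: a similar rise at all 3 numbers (Tnfsf10, Tnfsf4), a difference that was much greater at number 1 (Tnfsf8, Tnfsf9, Tnfsf14), and a difference of at most 0.23 at every number (Tnfsf11, Tnfsf13b, Cd40lg, Fasl).

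**Figure D1:**
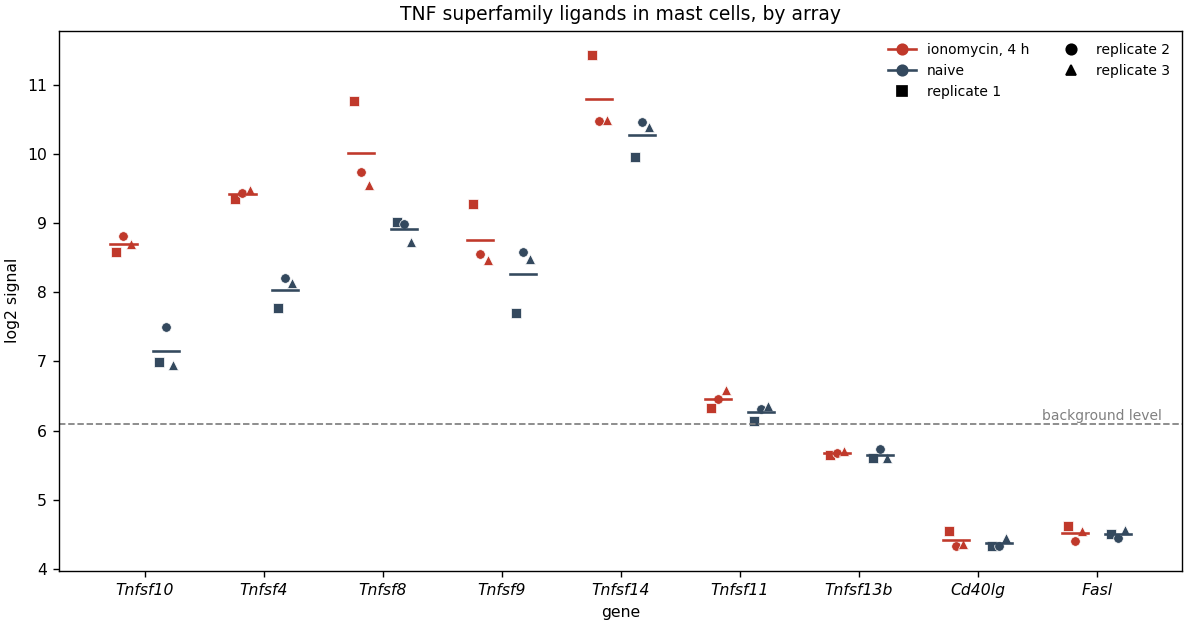
Log2 signal of each of the 9 ligands (x axis) on each array, with ionomycin arrays in red on the left and naive arrays in blue on the right of each gene. Marker shapes give the replicate number, bars the group means and the dashed line the background level of 6.09. The groups lie well apart for Tnfsf10 and Tnfsf4, while the square of ionomycin replicate 1 lies far above the other ionomycin arrays for Tnfsf8, Tnfsf9 and Tnfsf14.

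Tnfsf10 encodes TRAIL, a death ligand that binds the receptor encoded by Tnfrsf10b in mice. Its log2 signal was 8.58, 8.82 and 8.70 in ionomycin replicates 1, 2 and 3, against 6.99, 7.50 and 6.95 in the naive replicates. The lowest ionomycin array lay 1.08 above the highest naive array, and the naive arrays were the more scattered. The means were 8.70 ± 0.12 in ionomycin and 7.15 ± 0.31 in naive cells (SD, n = 3 each). The difference of 1.55 ± 0.16 (SE) passed (limma adjusted p = 0.0285), with a 95% interval of 1.17 to 1.94. By the size of its difference Tnfsf10 was number 53 of the 30102 genes. The differences at replicate numbers 1, 2 and 3 were 1.59, 1.32 and 1.75, and limma with the replicate number as a block gave an adjusted p of 0.0311; that fit called 0.395% of all genes higher. In bulk RNA a change in the number of cells that express a gene and a change in the RNA per cell cannot be told apart, here and for every gene below.

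Tnfsf4 encodes OX40 ligand, which binds OX40 on activated T cells. It read 9.34, 9.43 and 9.47 in the ionomycin arrays, against 7.77, 8.20 and 8.14 in the naive arrays. The ionomycin arrays lay within 0.13 of each other, the naive arrays were more scattered with replicate 1 lowest, and the groups did not overlap. The means were 9.41 ± 0.07 in ionomycin and 8.04 ± 0.23 in naive cells (SD, n = 3 each), a difference of 1.38 ± 0.12 (SE; limma adjusted p = 0.0167; 95% interval 1.09 to 1.67). It stood at number 68 of all genes by size. At the 3 replicate numbers the differences were 1.57, 1.23 and 1.33, and the fit with the block gave a limma adjusted p of 0.0305.

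Both rises were nearly as large without both replicate 1 arrays (1.54 for Tnfsf10 and 1.28 for Tnfsf4, limma adjusted p = 0.0199 and 0.00182). The calls depended on which arrays were kept. Without a single ionomycin array neither gene passed in limma: the adjusted p of Tnfsf10 was 0.0688, 0.182 and 0.162 without ionomycin replicate 1, 2 or 3, and that of Tnfsf4 was 0.0547, 0.133 and 0.119. Without naive replicate 3 they were 0.103 for Tnfsf10 and 0.0904 for Tnfsf4, and without naive replicate 2 Tnfsf10 passed (0.0324) and Tnfsf4 did not (0.0813). Without naive replicate 1 both passed (0.0469 and 0.00623). Across these 6 fits the difference itself ran from 1.46 to 1.73 for Tnfsf10 and from 1.25 to 1.46 for Tnfsf4.

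Tnfsf8 encodes CD30 ligand, a protein that mast cells are known to carry. Its ionomycin arrays read 10.76, 9.74 and 9.55, against 9.02, 8.98 and 8.72 in the naive arrays. Every ionomycin array was above every naive array, but ionomycin replicate 1 stood about 1 log2 unit above the other ionomycin arrays. The mean difference was 1.11 ± 0.31 (SE), number 108 of all genes by size, and it missed the threshold (limma adjusted p = 0.221; 0.104 with the replicate block). At replicate numbers 1, 2 and 3 the differences were 1.74, 0.76 and 0.82. In 2 fits that set replicate 1 apart, one with a block of 2 levels (number 1 against numbers 2 and 3) and one without both replicate 1 arrays, it passed (limma adjusted p = 0.0435 and 0.0334), with a difference of 0.79 in the second. These fits called 2.25% and 1.41% of all genes higher, so the call of Tnfsf8 there is set against a larger share of genes.

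Tnfsf9 and Tnfsf14 differed between the groups mainly at replicate number 1. Tnfsf9 encodes CD137 ligand, a costimulator of T cells. It read 9.27, 8.55 and 8.46 in the ionomycin arrays, against 7.71, 8.59 and 8.49 in the naive arrays. Ionomycin replicate 1 was the highest of the 6 arrays and naive replicate 1 the lowest, while the other 4 lay between 8.46 and 8.59. The differences were therefore 1.56, -0.03 and -0.03, with a mean of 0.50 ± 0.31 (SE) that did not pass (limma adjusted p = 0.430; 95% interval -0.24 to 1.24). Tnfsf14 encodes LIGHT, which binds HVEM and the lymphotoxin beta receptor. Its arrays read 11.43, 10.48 and 10.49 with ionomycin, against 9.96, 10.46 and 10.39 without. The same 2 arrays were the extremes, and the groups stayed apart only by 0.02 between naive replicate 2 and ionomycin replicate 2. Its differences were 1.47, 0.02 and 0.10, with a mean of 0.53 ± 0.28 (SE) that did not pass (limma adjusted p = 0.383; 95% interval -0.16 to 1.22). Without both replicate 1 arrays the difference was -0.03 for Tnfsf9 and 0.06 for Tnfsf14. Over the 6 arrays Tnfsf9 and Tnfsf14 had a Pearson's r of 0.952, a description over arrays that share group and replicate number.

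A gap of this kind, a difference at number 1 more than 0.5 above those at numbers 2 and 3, was seen for 3 of the 9 ligands and for 2.3% of all genes; the threshold was chosen after the values were seen. The gap was 1.59 for Tnfsf9, 1.37 for Tnfsf14 and 0.92 for Tnfsf8, against 0.24 for Tnfsf4 and -0.16 for Tnfsf10. Replicate number 1 stood apart over the whole array as well, and its part in these differences was not tested.

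**Figure D2:**
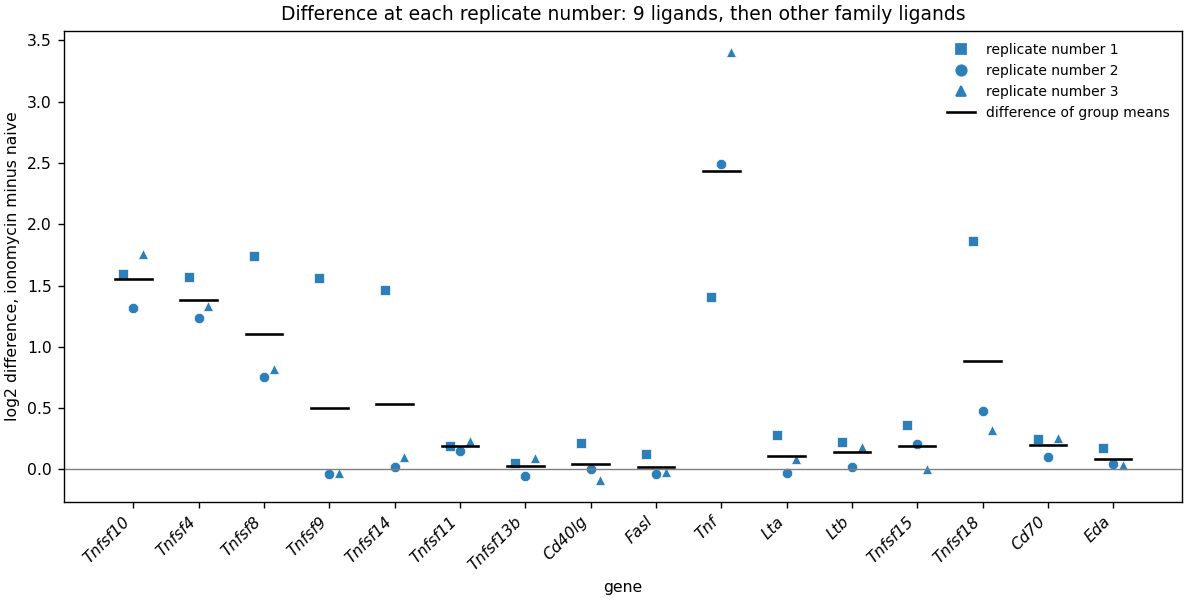
Log2 difference, ionomycin minus naive, at each replicate number (marker shapes) and between the group means (bars) for the 9 ligands and then for 7 other ligands of the family. Tnfsf10 and Tnfsf4 lie between 1.23 and 1.75 at every number, Tnfsf9 and Tnfsf14 lie near 0 at numbers 2 and 3, and Tnf is the only gene shown whose difference was smallest at number 1 and over 2 at the others.

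Tnfsf11 encodes RANKL, the ligand that drives osteoclast formation. It read 6.33, 6.46 and 6.58 in the ionomycin arrays, against 6.14, 6.31 and 6.35 in the naive arrays, all just above background. The groups overlapped, since naive replicate 3 was above ionomycin replicate 1, but the differences at the 3 numbers were close to each other at 0.19, 0.15 and 0.23. The mean difference of 0.19 ± 0.09 (SE) missed the threshold (limma adjusted p = 0.351; 0.139 with the replicate block), and it was 0.11 after quantile normalization.

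Tnfsf13b, Cd40lg and Fasl were below the background level on all 6 arrays. Tnfsf13b encodes BAFF, a survival factor of B cells, and read 5.65, 5.68 and 5.70 with ionomycin, against 5.60, 5.73 and 5.61 without. Cd40lg, the T cell ligand of CD40, read 4.55, 4.34 and 4.36 with ionomycin, against 4.33, 4.33 and 4.45 without. Fasl, the death ligand of cytotoxic lymphocytes, read 4.63, 4.41 and 4.55 with ionomycin, against 4.50, 4.45 and 4.57 without. The groups overlapped for each of the 3 genes, and the 95% intervals of the difference were -0.12 to 0.18 for Tnfsf13b, -0.15 to 0.23 for Cd40lg and -0.17 to 0.21 for Fasl. All 9 ligands had a difference above 0 in the values as deposited, but centring the arrays on their medians turned these 3 to below 0, at -0.036 for Tnfsf13b, -0.022 for Cd40lg and -0.045 for Fasl.

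Over all 9 ligands, 4 had no overlap between the groups with ionomycin higher (Tnfsf10, Tnfsf4, Tnfsf8, Tnfsf14), against 18.9% of all genes, and 5 were higher at all 3 replicate numbers, against 35.8%. None was lower at all 3 numbers (0 of 9), against 16.8% of all genes. These shares of all genes are large beside the 0.289% that passed the test.

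RefSeq start regions (GRCm38.p6) were matched by symbol for 6 of the 9 ligands, all but Tnfsf4, Tnfsf9 and Cd40lg. The 250 bases before the annotated start are shown for Tnfsf10, which rose at every replicate number, for Tnfsf8 and Tnfsf14, whose differences were greatest at number 1, and for Fasl, which was below background in both groups. They run 5′ to 3′ along the gene, with capitals at matches to any of 3 motifs searched on both strands: the NFAT core GGAAA, the AP-1 motif TGANTCA and a FOXO motif GTAAACA. The Tnfsf10 window is chr3:27316827-27317076, plus strand, that of Tnfsf8 chr4:63861285-63861534, minus strand, that of Tnfsf14 chr17:57194182-57194431, minus strand, and that of Fasl chr1:161788496-161788745, minus strand.
Tnfsf10: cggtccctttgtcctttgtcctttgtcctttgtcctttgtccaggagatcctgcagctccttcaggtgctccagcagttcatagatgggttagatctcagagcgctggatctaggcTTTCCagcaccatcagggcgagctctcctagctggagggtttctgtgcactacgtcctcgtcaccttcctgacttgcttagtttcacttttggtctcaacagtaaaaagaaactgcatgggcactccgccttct
Tnfsf8: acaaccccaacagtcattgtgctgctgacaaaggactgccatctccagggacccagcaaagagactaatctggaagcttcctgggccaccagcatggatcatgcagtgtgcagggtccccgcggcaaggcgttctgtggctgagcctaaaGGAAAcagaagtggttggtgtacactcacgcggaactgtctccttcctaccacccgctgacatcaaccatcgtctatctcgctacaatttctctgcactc
Tnfsf14: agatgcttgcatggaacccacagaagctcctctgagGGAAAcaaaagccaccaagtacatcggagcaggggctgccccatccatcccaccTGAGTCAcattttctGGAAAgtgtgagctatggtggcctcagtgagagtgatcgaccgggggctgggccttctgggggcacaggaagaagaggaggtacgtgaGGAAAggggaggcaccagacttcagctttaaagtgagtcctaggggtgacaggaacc
Fasl: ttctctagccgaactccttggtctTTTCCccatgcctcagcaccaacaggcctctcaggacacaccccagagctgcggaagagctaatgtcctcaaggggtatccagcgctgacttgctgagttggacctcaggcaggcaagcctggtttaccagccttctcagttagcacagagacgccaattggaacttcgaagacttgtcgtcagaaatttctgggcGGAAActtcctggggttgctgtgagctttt
The window of Tnfsf10 holds 1 NFAT core, with its first base 134 bases before the start, and that of Tnfsf8 holds 1, at 100 bases. The window of Tnfsf14 holds 3 NFAT cores and 1 AP-1 motif, at 160 bases, and that of Fasl holds 2 NFAT cores, at 226 and 30 bases. None of these windows holds the FOXO letters. Of the windows not shown, that of Tnfsf11 holds 1 NFAT core. Tnfsf13b, also below background, has a window with 1 NFAT core and another with 2 NFAT cores and 1 AP-1 motif, at 127 bases. Over 32841 windows of 250 bases in the same collection, 55.6% hold the NFAT core, 6.75% the AP-1 motif and 3.17% the FOXO motif. The NFAT core is thus common in any such window, and a match is a description of the letters and not of binding.

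The arrays also measured 7 other ligands of the family, from a list of 9; Tnfsf12 and Tnfsf13 had no row naming them alone. None of the 7 passed by limma (0 called, with 2 higher and 0 lower before adjustment at p under 0.05, against 10.2% and 5.44% of all genes), and their median difference was 0.19, against 0.05 over all genes. Tnf, the founding member of the family, read 12.00, 10.88 and 10.76 in the ionomycin arrays, against 10.60, 8.39 and 7.36 in the naive arrays. Naive replicate 1 was far above the other naive arrays, so the difference was smallest at number 1 (1.40) and larger at numbers 2 and 3 (2.49 and 3.41). This is the reverse of the order in Tnfsf9 and Tnfsf14. The mean difference of Tnf was 2.43 ± 0.83 (SE), short of the threshold (limma adjusted p = 0.273; 0.0860 with the block). It passed with the 2-level block (0.0324), without both replicate 1 arrays (0.0172) and with array weights (0.0171). Those settings called 2.25%, 1.41% and 7.44% of all genes higher, against 0.289% in the main fit. Ltb, the membrane partner of lymphotoxin alpha, had a difference of 0.14 (limma adjusted p = 0.497). Tnfsf18, the GITR ligand, was named after its values were seen because its differences (1.86, 0.48 and 0.32) were again greatest at number 1; it was below background on average, and its mean difference of 0.89 did not pass (limma adjusted p = 0.293).

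Of 15 receptors and decoy receptors of the 9 ligands, 0 passed by limma without the block (4 higher and 1 lower before adjustment at p under 0.05, where 10.2% and 5.44% of all genes stand), and 1 was higher with it, against 0.395% of all genes. All 15 were above background, as were 18678 of all 30102 genes, and their median difference was 0.14. The one that passed with the block was Tnfrsf9, which encodes CD137, the receptor of the Tnfsf9 product. It read 8.78, 9.48 and 9.64 in the ionomycin arrays, against 7.33, 8.19 and 8.10 in the naive arrays. Replicate 1 was the lowest array in each group, and the difference was much the same at all 3 numbers (1.45, 1.29 and 1.54). The mean difference was 1.43 ± 0.31 (SE) with limma adjusted p = 0.146 without the block and 0.0164 with it. Receptor and ligand of this pair thus had unlike values: at numbers 2 and 3 Tnfrsf9 differed by 1.29 and 1.54 and Tnfsf9 by -0.03 at both. The contrast between them was not tested.

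The receptors of the 2 ligands that rose had smaller differences that did not pass. These and the next receptors are named as partners of the ligands and not by size. Tnfrsf10b, the TRAIL receptor, differed by 0.26 (0.53, 0.18 and 0.09 at the 3 numbers; limma adjusted p = 0.542), and Tnfrsf4, which encodes OX40, by 0.10 (limma adjusted p = 0.587). The receptor gene of Tnfsf8, Tnfrsf8 (CD30), read 8.40, 8.26 and 8.12 with ionomycin, against 8.65, 8.60 and 8.40 without, a difference of -0.29 short of the threshold (limma adjusted p = 0.275; 0.0966 with the block). Fas differed by -0.004 (limma adjusted p = 0.991) and Cd40 by 0.19 (limma adjusted p = 0.337). Tnfrsf13b, the BAFF and APRIL receptor TACI, differed by 0.14 (limma adjusted p = 0.462). Tnfrsf17 and Tnfrsf11a, of the same list and named after their values were seen, differed by 0.27 and 0.35. Neither passed without a block (limma adjusted p = 0.142 and 0.184), but both did with the 2-level block (0.0490 and 0.0373). The naive mean of Tnfrsf17 was 5.97, below background. With the 2-level block 3 of the 15 receptors were higher, against 2.25% of all genes.

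**Figure D3:**
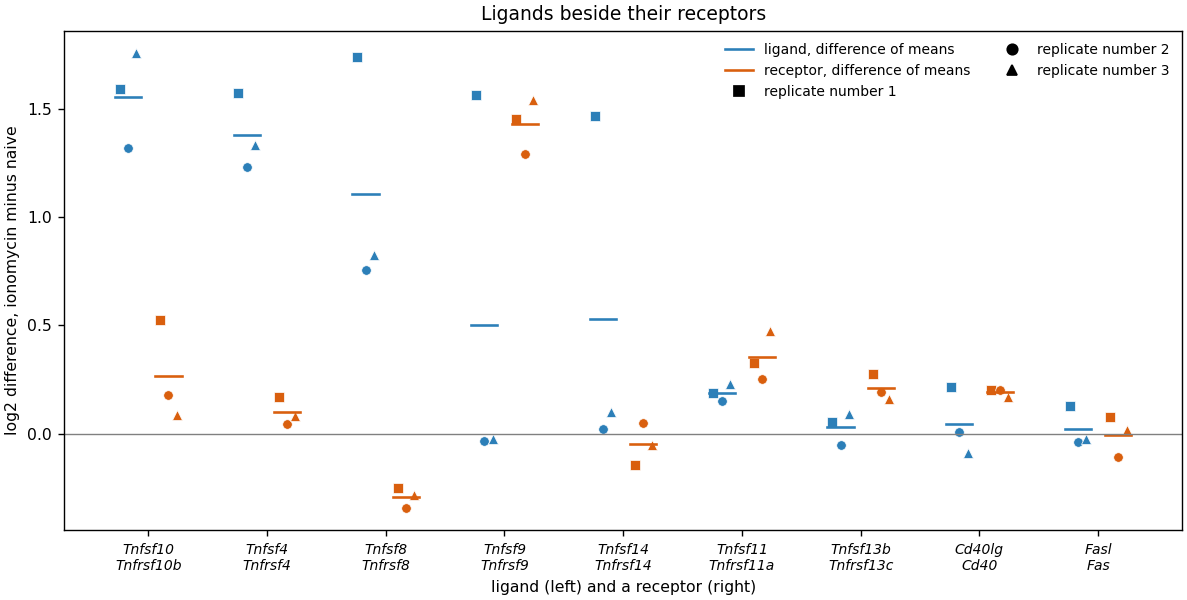
Log2 difference, ionomycin minus naive, at each replicate number (marker shapes) and between group means (bars) for each ligand in blue and one of its receptors in orange to its right. The Tnfsf9 and Tnfrsf9 pair shows a receptor difference of 1.29 to 1.54 at every number beside a ligand difference seen at number 1 alone, while Tnfrsf10b and Tnfrsf4 lie at 0.53 or less beside their ligands Tnfsf10 and Tnfsf4.

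Inside the cell, 1 of 14 measured mediators of these receptors rose and 0 fell, against 0.289% and 0.0598% of all genes, with a median difference of -0.01. The one that rose was Cflar, which encodes cFLIP, a catalytically inactive relative of caspase-8 that can block death receptor signalling. It read 10.66, 10.79 and 10.75 in the ionomycin arrays, against 10.15, 10.23 and 10.11 in the naive arrays. The groups lay apart by 0.43 with little scatter in either. The difference of 0.57 ± 0.06 (SE) passed in limma (adjusted p = 0.0364, and 0.0475 with the block) but not in any fit without 1 array (0.0573 to 0.241), nor after quantile normalization (0.0630) or centring (0.0504). Cflar has 2 rows on the array, and their mean did not pass (difference 0.44, limma adjusted p = 0.0682). Tnfaip3, the NF-kB feedback protein A20, differed by 0.78 ± 0.27 and was not called without a block (limma adjusted p = 0.275) or with the replicate block (0.103). It passed with the 2-level block (0.0389), without both replicate 1 arrays (0.0245) and with array weights (0.0328), where 2.25%, 1.41% and 7.44% of all genes were higher. Fadd, Casp8 and Cyld, named after their values were seen because all ionomycin arrays lay below all naive arrays, differed by -0.29, -0.23 and -0.23 and did not pass (limma adjusted p = 0.328, 0.334 and 0.282). Lower values without overlap were found for 7.31% of all genes.

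Several ligands of the family are cut from the cell surface or processed by proteases. Of 7 such protease genes, 0 passed by limma (1 higher and 0 lower before adjustment at p under 0.05, beside 10.2% and 5.44% of all genes). Furin, the proprotein convertase that cleaves BAFF, differed by 0.04 (limma adjusted p = 0.886) and Adam10 by 0.21 (limma adjusted p = 0.335). Under quantile normalization Furin was at -0.014 and under centring at -0.024.

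Tnfsf10 is also known as an interferon-stimulated gene, so other genes of that class were set beside it. Of 22 measured, 2 rose and 0 fell, against 0.289% and 0.0598% of all genes, with a median difference of 0.23 against 0.05 over all genes. Before adjustment, at p under 0.05, 10 were higher and 0 lower, against 10.2% and 5.44% of all genes. This list too was chosen with earlier results of these data known. The differences ran from -0.30 (Irf1) to 1.62 (Rsad2), 20 above 0 and 2 below (Irf1, and Stat2 at -0.18). With the 2-level block 6 of the 22 were higher, against 2.25% of all genes. Cxcl10, an interferon-inducible chemokine, rose by 0.84 ± 0.10 (SE; limma adjusted p = 0.0395; 0.0332 with the block), with a naive mean of 5.63 below background. Gbp3, a guanylate-binding protein, rose by 0.68 ± 0.09 (SE; limma adjusted p = 0.0485) but not with the block (0.0704). Neither passed in any fit without 1 array (limma adjusted p from 0.0624 to 0.241 for Cxcl10 and from 0.0690 to 0.273 for Gbp3), nor under quantile normalization (0.0519 and 0.0753) or centring (0.0522 and 0.0723). Rsad2 and Ifit1, named after their values were seen, had the largest differences of the list, 1.62 and 1.54. They did not pass (limma adjusted p = 0.155 and 0.193) but did with the 2-level block (0.0392 and 0.0274). Both were smallest at number 1 (0.98 for Rsad2 and 0.83 for Ifit1, against 1.89 to 1.97 for Rsad2 and 1.86 to 1.92 for Ifit1 at numbers 2 and 3). Tnfsf10 differed by 1.59 at number 1, between its values at the other numbers. Cxcl10 had the same order (0.87 at number 1, against 0.73 and 0.92), and Gbp3 was largest at number 1 (0.89, against 0.66 and 0.49). A link between Tnfsf10 and these genes was not tested.

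The genes whose values over the 6 arrays were most like those of Tnfsf4, among 13646 named genes above background, were Rln3 (Pearson's r = 0.9994), Slc10a4l (0.9989) and Hsph1 (0.9987). Rln3 encodes the peptide relaxin-3 and Hsph1 an HSP110 chaperone. Both were called higher, by 4.60 and 2.19 on the log2 scale (limma adjusted p = 0.0153 for each). Genes picked for an r this high share the direction of Tnfsf4, so that direction follows from the pick. Slc10a4l differed by 0.24 and did not pass (limma adjusted p = 0.158), except with array weights (0.0239), where 7.44% of all genes were higher. For Tnfsf10 they were Mcrip2 (0.9962), Pkdrej (0.9950) and Cflar (0.9921), of which Mcrip2 and Pkdrej differed by 0.20 and 0.33 and did not pass (limma adjusted p = 0.211 and 0.114), although Pkdrej passed with the 2-level block (0.0416) and with array weights (0.0218), and Mcrip2 with array weights (0.0405). With 6 arrays in 2 groups such values describe the arrays and were not tested. An r above 0.95, a lower cut, was found for 387 of the 13646 genes with Tnfsf4 and for 184 with Tnfsf10. Tnfsf4 and Tnfsf10 had an r of 0.979 with each other.

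Several of the ligands are best known from lymphocytes, dendritic cells or stromal cells, so markers of those cells were examined. Of the 9 measured T cell markers (10 listed) 7 were above the background level, 0 passed, and their mean log2 level was 6.34 to 6.44 in the ionomycin arrays, against 6.18 to 6.32 in the naive arrays. Cd4 and Cd3g were below background. Of 7 dendritic cell markers 1 was above background, with a mean level of 5.86 to 5.93 in the ionomycin arrays, against 5.68 to 5.69 in the naive arrays. All 7 stromal and osteoblast markers measured were above background, at 7.03 to 7.09 with ionomycin, against 6.73 to 6.89 without. Since 18678 of all 30102 genes were above background, such counts do not show that these cells were present. The ranges of the 5 NK cell markers (5.93 to 6.00 with ionomycin, against 5.54 to 5.85 without) and of the 5 B cell markers (6.19 to 6.34, against 6.13 to 6.17) did not overlap either. Of these markers 0 passed by limma with or without the block, and their part in the ligand values was not tested. The NK cell marker Ncr1, named after its values were seen, had the largest difference among the markers of these 5 lists (8.01 with ionomycin, against 7.11 without; limma adjusted p = 0.0794). The median differences of the lists were 0.13 for T cells, 0.15 for dendritic cells, 0.18 for stromal cells, 0.03 for NK cells and 0.09 for B cells. After centring they were 0.06, 0.08, 0.11, -0.03 and 0.03. Macrophage and basophil markers were measured as well. All 8 macrophage and monocyte markers were above background, with mean levels of 7.9 to 8.4 with ionomycin, against 8.0 to 8.2 without. All 5 basophil markers were too, at 9.5 to 10.3, against 9.5 to 10.1. Their 6-array means were uneven, from 7.03 for Il4 to 11.63 for Itga2b, and do not show that basophils were present. Mcpt8, Prss34 and Il4, named after their values were seen, were highest on replicate 1 in each group, and Itga2b was lowest. In both lists 0 passed by limma, and their part in the ligand values was not tested.

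**Figure D4:**
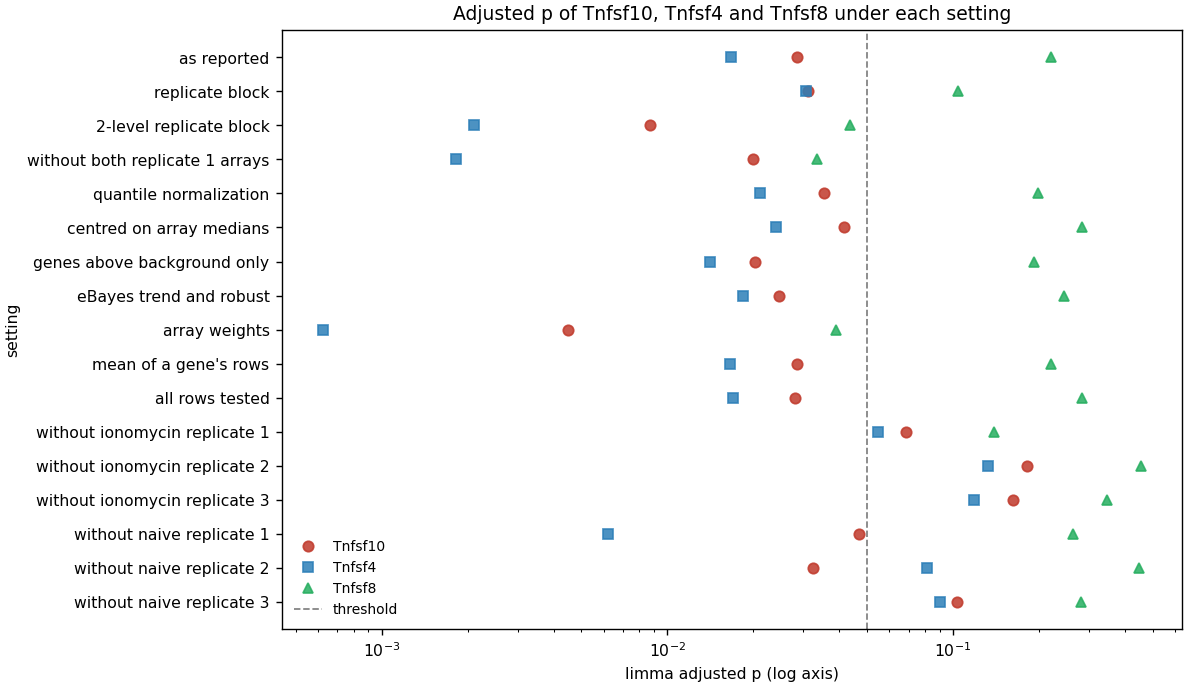
Limma adjusted p (log axis) of Tnfsf10, Tnfsf4 and Tnfsf8 in the fit as reported and in 16 alternative settings (y axis), with the threshold of 0.05 dashed. Tnfsf10 and Tnfsf4 lie left of the threshold in the upper 10 alternatives, and Tnfsf8 in 3 of them; in the lower 6, which each leave out 1 array, only Tnfsf4 without naive replicate 1 and Tnfsf10 without naive replicate 1 or 2 do.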

How the data were processed

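Total RNA of 6 BMMC samples, 3 taken 4 h after ionomycin and 3 naive, was measured on whole-transcript Affymetrix arrays. The values are log2 signals that the authors deposited, 65770 rows by 6 arrays. The R package oligo made them, per the submitters' processing notes. Its version, the normalization and the genome build: not given in the sources used here. The log2 scale was read from the values (3.01 to 14.6). Whether arrays were centred or scaled to each other stays unknown: their medians are 5.88 to 6.03, unequal.

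The platform annotation named the rows (30439 rows with 1 symbol, 2146 with several, 33185 with none), with 827 symbols updated through Entrez IDs to RefSeq of GRCm38.p6. The row with the highest 6-array mean was kept for each gene, which gave 30102 genes. The groups were compared with limma 3.58.1 (R 4.3.3; lmFit and eBayes, two-sided, Benjamini-Hochberg over all genes, threshold 0.05), without a block or a filter. The fit was also run on simulated data with independent noise on each array. Those data lack the shared deviation of replicate 1, so they do not show how the fit behaves under it. Differences are ionomycin minus naive, and folds are 2 to the power of the difference. Every adjusted p is from limma.

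Replicate numbers are shared between the groups by the titles. Across genes, deviations from the group means correlated between same-numbered arrays (0.711, 0.476 and 0.469, each over 0.1), and a fit with that number as a block is therefore given where it changes a call. Crossed numbers 2 and 3 correlated as well (0.481 and 0.524), so replicate 1 accounts for most of the pairing.

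The 9 members, the gene lists, the markers and the alternatives (listed below with their effect) were chosen with earlier results of these data known. Genes outside the 9 were named by rule: from each list the genes past the threshold in either fit, at most 4, or the brightest until 2 were named, and the 3 genes most like Tnfsf4 and Tnfsf10. Exceptions are marked.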

Additional observations from a re-analysis of the deposited data

How the results depend on the processing

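Directions of Tnfsf4, Tnfsf8, Tnfsf10, Tnfsf11 and Tnfsf14 were the same in all 16 alternatives. The number of genes higher was 87 (119 with the replicate block) and the number lower 18 (33 with it). With the 2-level block they were 677 and 744, without both replicate 1 arrays 423 and 429, and with array weights 2240 and 1654. The number lower was 27 after quantile normalization, 32 after centring (69 higher, a split of 68.3% higher against 82.9%) and 9 with trended, robust eBayes. Without 1 array 1 to 95 genes were higher and 0 to 55 lower. Of the 9 ligands 2 were higher, 3 with the 2-level block, without both replicate 1 arrays and with array weights (where 7.44% of all genes were higher), and 0 to 2 without 1 array. The replicate block changed 2 calls among named genes (Tnfrsf9 passed, Gbp3 did not). Signs turned only for genes that did not pass. Tnfsf9 was -0.030 without both replicate 1 arrays. Without these arrays Cd40lg was -0.042, Fasl -0.032 and Furin -0.061. Tnfsf13b was -0.032 after quantile normalization, -0.036 after centring and -0.019 with array weights. Cd40lg was -0.022 after centring. Fasl was -0.013 after quantile normalization, -0.045 after centring and -0.016 with array weights, and Furin -0.014, -0.024 and -0.103. Without 1 array Cd40lg ran from -0.021 to 0.085, Fasl from -0.030 to 0.081 and Furin from -0.11 to 0.15. The causes were not tested.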
